A study of Mus musculus with 24 samples.

Results

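A set of 9 genes for peptide digestion and amino acid uptake at the surface of the small intestine was followed across wild-type and mutant crypts and villi on Affymetrix mouse arrays. They were Tmprss15, Anpep, Enpep, Dpep1, Mme, Slc15a1, Slc6a19, Slc7a9 and Slc3a1. These 9 symbols formed a fixed list, which was chosen with earlier results of these data known. All 9 were measured, of 18193 genes in all, by 12 probe sets, where a probe set is the group of short oligos that reports 1 transcript. Each gene was read from its probe set with the highest mean over the 24 arrays. Slc6a19, Dpep1 and Mme had a second probe set, used as a check.

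The samples fell into 8 groups of 3 arrays. QKO was E2f1-/-;E2f2-/-;E2f3-/-;Rb-/-, TKO was E2f1-/-;E2f2-/-;E2f3-/-, Rb was Rb-/- and WT was wild type, each as villi and as crypts. All mice, wild type included, were 2 months old, of the mixed strain C57BL/6;FVB, and had been injected with beta-napthoflavone, an activator of the aryl hydrocarbon receptor, 7 days before harvest. Rb and the E2f proteins form the pathway that controls entry into the cell cycle, and the comparisons ask what its loss does in the dividing crypt and in the absorptive villus. The labels name neither the driver of the deletions nor the cells that carry them. They also do not say whether replicate arrays stand for different animals, so the p-values measure the spread between arrays, which may be technical. By a Y-linked transcript, the TKO villus, TKO crypt and Rb villus groups held both sexes. The arrays of these groups thus did not all come from a single animal.

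Dietary protein is cut by pancreatic proteases in the lumen, then by peptidases anchored in the brush border of enterocytes, and is taken up as free amino acids and as short peptides. Enteropeptidase, the product of Tmprss15, starts the cascade: it converts trypsinogen to trypsin and is made mainly in the duodenum. The brush border enzymes include aminopeptidase N (Anpep), glutamyl aminopeptidase (Enpep), membrane dipeptidase (Dpep1) and neprilysin (Mme). Slc15a1 carries di- and tripeptides together with protons, Slc6a19 carries neutral amino acids with sodium, and Slc7a9 and Slc3a1 are the light and heavy subunits of the exchanger for cystine and basic amino acids.

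The promoters of 3 of these genes are shown, since Tmprss15 and Slc15a1 were among the 4 genes with a genotype call and the promoter of Slc3a1 held the most of the motifs searched. Each is 300 bases, from 250 before the transcription start to 50 from it on, in the gene's own direction, from RefSeq on build GRCm38.p6. Capitals mark matches to the motifs named after the sequences. Tmprss15 lies at chr16:79091048-79091347 on the minus strand, Slc15a1 at chr14:121505205-121505504 on the minus strand and Slc3a1 at chr17:85028097-85028396 on the plus strand.
Tmprss15: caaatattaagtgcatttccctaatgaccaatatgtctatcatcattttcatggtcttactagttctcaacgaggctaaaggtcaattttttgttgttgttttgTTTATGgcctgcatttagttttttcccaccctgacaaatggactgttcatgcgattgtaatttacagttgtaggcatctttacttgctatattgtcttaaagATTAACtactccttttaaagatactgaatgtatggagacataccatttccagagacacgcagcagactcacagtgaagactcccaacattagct
Slc15a1: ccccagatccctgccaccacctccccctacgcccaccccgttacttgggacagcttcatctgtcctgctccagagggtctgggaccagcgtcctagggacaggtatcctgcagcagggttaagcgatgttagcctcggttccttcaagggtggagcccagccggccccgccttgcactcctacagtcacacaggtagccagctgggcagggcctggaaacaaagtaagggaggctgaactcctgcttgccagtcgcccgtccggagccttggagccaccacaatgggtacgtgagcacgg
Slc3a1: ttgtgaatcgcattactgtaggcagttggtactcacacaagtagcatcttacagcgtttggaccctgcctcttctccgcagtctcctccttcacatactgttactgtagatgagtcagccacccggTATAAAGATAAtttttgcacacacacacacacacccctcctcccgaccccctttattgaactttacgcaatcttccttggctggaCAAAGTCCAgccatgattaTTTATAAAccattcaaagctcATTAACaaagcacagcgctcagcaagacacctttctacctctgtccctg

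All 9 genes had a promoter window, and Slc7a9 had 2 and Mme 3. Matches are given per gene, in any of its windows, while the shares of all mouse windows are per window. The HNF1 element GTTAAT was found on either strand in the windows of Slc3a1 and Tmprss15, against 7.1% of 32851 mouse windows of that length. The CDX2 element TTTATG occurred in Tmprss15 alone of the 9, against 11.9% of windows. The GATA element AGATAA occurred in Slc7a9 and Slc3a1 (11.2% of windows), and the HNF4 core CAAAGTCCA in Slc3a1 (0.475% of windows). The TATA element TATAAA was in Slc3a1 and Enpep (13.6% of windows), and in Slc3a1 one copy overlapped the GATA match. HNF1, CDX2, GATA and HNF4 factors are known regulators of enterocyte genes. Of the E2F sites TTTCCCGC, TTTGGCGC and TTTCGCGC, found in 1.07%, 0.514% and 0.323% of windows, none lay in the windows of the 9 genes. These matches describe the letters of the windows and no binding.

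Some arrays stood apart from the rest or from their labels. On the probe set for Rb1, the gene labelled as lost, WT crypts 3 read 8.46 and Rb crypts 2 read 10.25, while the other WT crypt arrays read 10.31 and 10.59 and the other Rb crypt arrays 8.23 and 8.87. Both arrays thus went against their labels, and the calls that change without them are given beside the results. The poly-A controls averaged 9.70 to 11.9 on the 12 QKO and TKO arrays and 5.44 to 7.13 on the 12 Rb and WT arrays. The labels do not say why these controls differed. Loss of E2f1 to E2f3 and whatever set the controls apart cannot be told apart. A Y-linked transcript put all QKO arrays in males, all WT and all Rb crypt arrays in females, and the TKO and Rb villus groups and the TKO crypt group in both sexes. Array medians were 4.97 to 5.08 except on QKO villi 3 (5.26) and QKO crypts 2 (5.17).

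Levels are on the deposited log2 scale, where a difference of 1 is a doubling of signal, and each is read within a gene, since probe sets differ in brightness. Of the 9 genes, 8 had bright probe sets, with means over all arrays between 10.48 for Slc15a1 and 13.63 for Enpep. Tmprss15 averaged 6.33, near the median of 6.39 over all values of the 18193 genes.

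On build GRCm38.p6 the genes span chr16:78953008-79091097 (Tmprss15), chr7:79821803-79848210 (Anpep), chr3:129269177-129332749 (Enpep), chr8:123186235-123201812 (Dpep1) and chr3:63295211-63383713 (Mme). The transporters span chr14:121459621-121505254 (Slc15a1), chr13:73679745-73700780 (Slc6a19), chr7:35448727-35466034 (Slc7a9) and chr17:85028347-85064241 (Slc3a1).

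**Figure D1:**
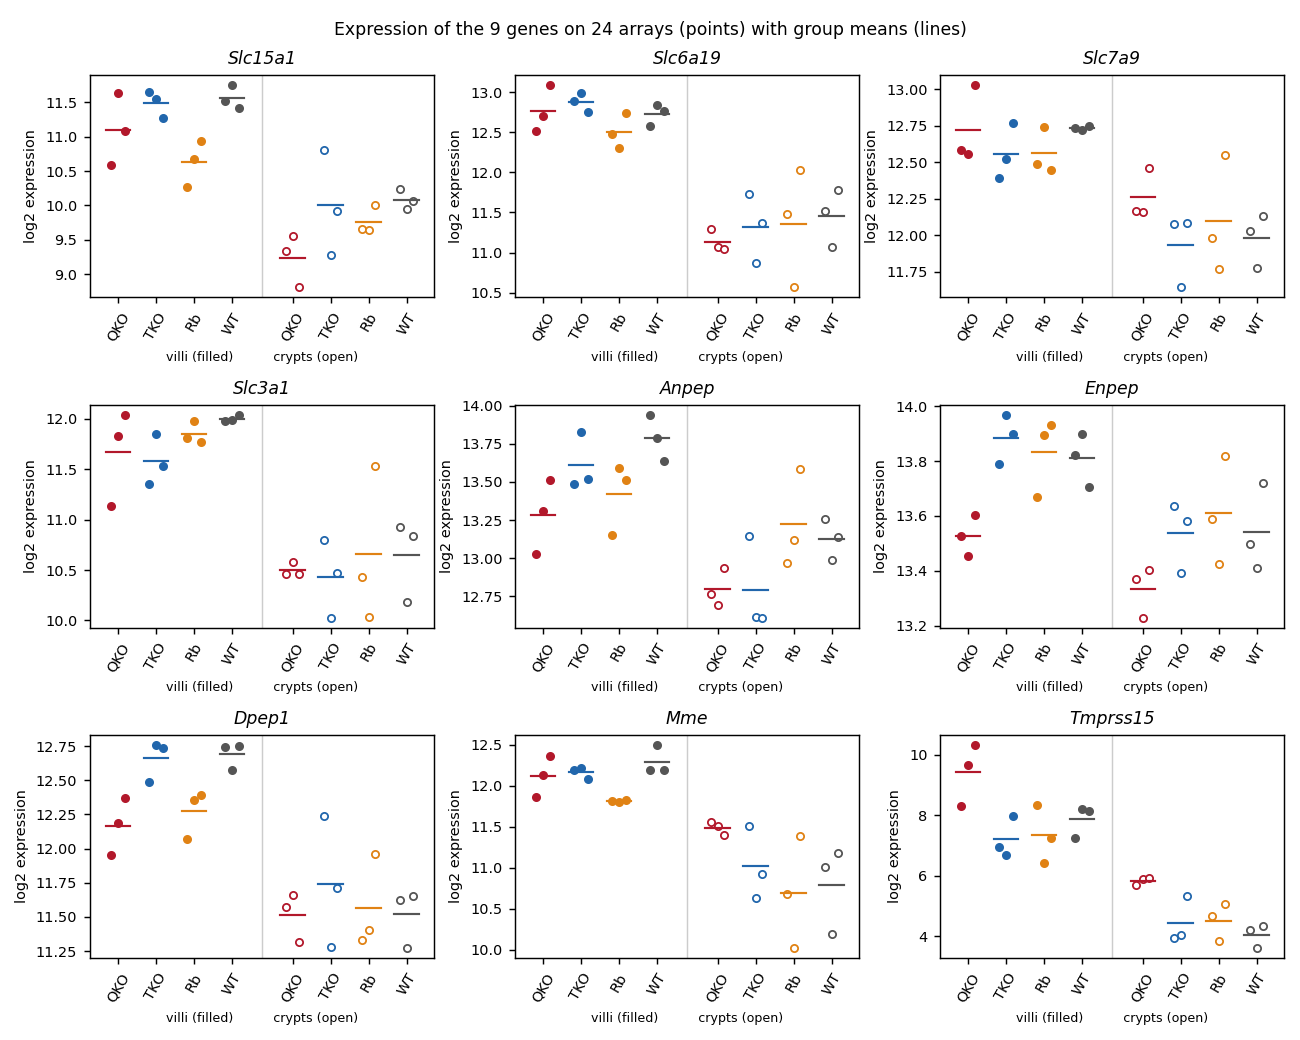
Log2 expression (vertical axis, scaled per gene) of the 9 genes on the 24 arrays, by genotype, with villi as filled and crypts as open points and lines at the group means of 3 arrays. Within each genotype the villus mean lies above the crypt mean in every panel, and Tmprss15 stands highest in QKO villi, at 8.30, 9.65 and 10.3.

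In WT intestine 8 of the 9 genes were higher in villi than in crypts, and the 9th, Enpep, missed the threshold of an adjusted p of 0.05 (0.27 ± 0.11 log2, SE, adjusted p = 0.059, limma). Of all genes, 18.8% were called higher in WT villi. The median difference of the 9 was 1.27 on the log2 scale, beside a median of 0.08 over all genes. Villus and crypt arrays did not overlap for 8 of the 9, which held for 52.5% of all genes.

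In TKO all 9 genes were higher in villi, with a median difference of 1.14, against 6.43% of all genes called higher. In QKO 7 of 9 were higher, with a median of 0.65 and 13.5% of all genes called higher. Enpep (0.19 ± 0.11, adjusted p = 0.19) and Mme (0.63 ± 0.27, adjusted p = 0.075) were not called there, although Mme was called in 2 of 13 other settings. In Rb 6 of 9 were higher, with a median of 0.86 and 7.61% of all genes called higher. The genes not called there were Slc7a9 (0.46 ± 0.18, adjusted p = 0.078), Anpep (0.20 ± 0.17, adjusted p = 0.50) and Enpep (0.22 ± 0.11, adjusted p = 0.18). Arrays did not overlap for 9 genes in QKO, 9 in TKO and 6 in Rb, against 36%, 33.7% and 35.9% of all genes.

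Single arrays set these counts outside WT. Without Rb crypts 2, 1 gene was called in Rb, Tmprss15, and without both arrays that went against their labels 2 were called, Slc6a19 and Tmprss15. Without TKO crypts 2 the TKO count was 4, and without QKO villi 3 the QKO count was 4. The WT count was 8 or 9 whichever array was left out. In these bulk preparations fewer cells of a type and less RNA per cell cannot be told apart. The mean of 11 absorptive enterocyte markers was 13.7 to 14.0 in QKO villi, against 13.2 to 13.4 in QKO crypts, and 13.9 to 14.0 in WT villi, against 13.2 to 13.4 in WT crypts.

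**Figure D2:**
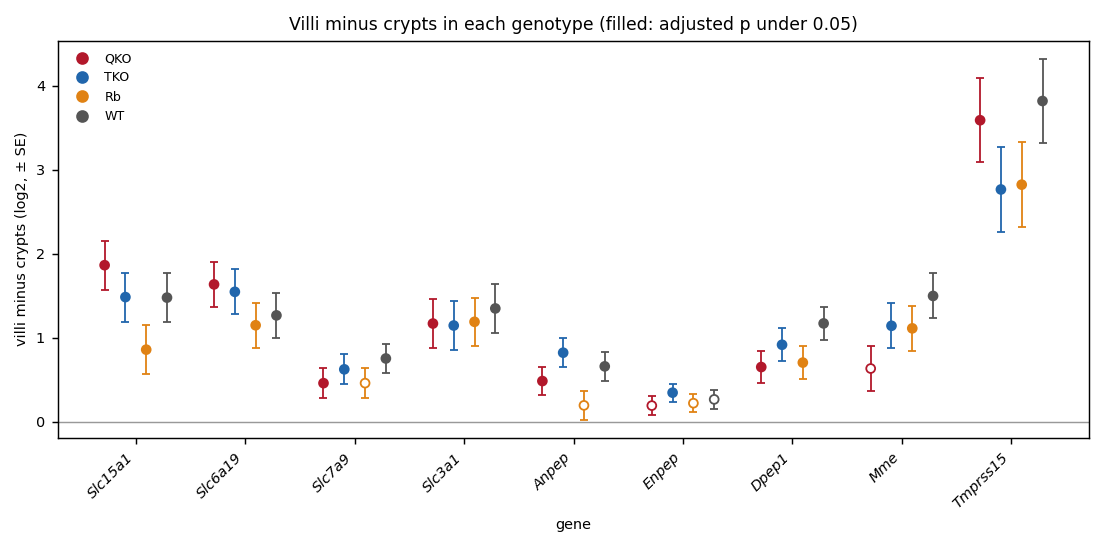
Villi minus crypts for each of the 9 genes (log2, points with SE from the fit over 24 arrays) in QKO, TKO, Rb and WT, with filled points where the adjusted p was under 0.05. All 36 differences are above 0, and Tmprss15 has the largest in each genotype, 2.77 to 3.82.

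Whether the villus to crypt difference itself changed with genotype was tested as a difference of differences. None of the 9 genes was called for QKO against WT (5.44% of all genes called), TKO against WT (3.43%) or Rb against WT (5.22%), by limma. At an unadjusted p under 0.05 there was 1 such gene for QKO, Mme (-0.86 ± 0.38, adjusted p = 0.19), and 0 for TKO and for Rb. The Rb estimates ran from -0.996 for Tmprss15 to -0.05 for Enpep, with intervals that included 0. Their signs were not all stable: leaving out 1 array gave up to 0.22 for Slc6a19, 0.27 for Slc3a1 and 0.06 for Enpep. Without both arrays that went against their labels these 3 were at -0.68, -0.57 and -0.23, and none of the 9 was called.

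Tmprss15 had the widest range of the 9. In villi it read 8.30, 9.65 and 10.31 in QKO, 6.94, 6.69 and 7.98 in TKO, 8.34, 6.42 and 7.25 in Rb, and 7.25, 8.21 and 8.15 in WT. In crypts it read 5.68, 5.87 and 5.93 in QKO, 3.95, 4.05 and 5.31 in TKO, 4.65, 3.83 and 5.05 in Rb, and 4.21, 3.62 and 4.32 in WT. Every QKO array was above every WT array of the same compartment, whereas TKO, Rb and WT overlapped. Villi exceeded crypts by 3.59 ± 0.50 in QKO (adjusted p = 2.0e-05), 2.77 ± 0.50 in TKO (adjusted p = 0.0022), 2.82 ± 0.50 in Rb (adjusted p = 0.00095) and 3.82 ± 0.50 in WT (adjusted p = 4.9e-06). All WT crypt values, and some of TKO and Rb, lay below every array median (4.97 to 5.26), and no detection calls were used, so Tmprss15 is not shown to be above background there and no fold against crypts is given.

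Tmprss15 was higher in QKO than in WT, by 1.55 ± 0.50 in villi (2.93-fold, adjusted p = 0.038) and by 1.78 ± 0.50 in crypts (adjusted p = 0.022), the crypt difference against a WT level not shown to be above background. In villi it also exceeded Rb by 2.09 ± 0.50 (4.24-fold, adjusted p = 0.0047) and TKO by 2.22 ± 0.50 (4.65-fold, adjusted p = 0.010). In crypts the differences were 1.32 ± 0.50 from Rb (adjusted p = 0.077) and 1.39 ± 0.50 from TKO (adjusted p = 0.16). Neither TKO nor Rb was called against WT: TKO minus WT was -0.67 ± 0.50 in villi and Rb minus WT was -0.54 ± 0.50. The test of whether QKO minus TKO differs from Rb minus WT gave 2.75 ± 0.71 in villi (95% interval 1.27 to 4.23, adjusted p = 0.011), and 0.93 ± 0.71 in crypts (adjusted p = 0.59). Of all genes, 15.4% were called by that test in villi and 0.0275% in crypts, and no other of the 9 was called in either.

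This villus difference of differences for Tmprss15 stayed past the threshold when any 1 of the 12 villus arrays was left out (2.296 to 3.314). The QKO to WT calls for Tmprss15 ended in several settings. With sex as a covariate, QKO minus WT was 0.72 in villi (adjusted p = 0.55) and 0.95 in crypts (adjusted p = 0.42), and sex and genotype cannot be told apart here beyond that fit, since all QKO arrays were male and all WT arrays female. The villus call was lost without any 1 of WT villi 1, 2 and 3, QKO villi 2 and QKO villi 3 (1.10 to 1.72), and the crypt call without WT crypts 2, QKO crypts 2 or QKO crypts 3 (1.56 to 1.76). QKO minus TKO in villi was not called without QKO villi 3 (1.77, adjusted p = 0.075) or TKO villi 2 (1.96, adjusted p = 0.064), while QKO minus Rb in villi was called whichever array was left out.

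Some markers of position along the intestine also differed between QKO and WT. The mean of 6 proximal markers was 10.03 to 10.49 in QKO villi, against 8.20 to 8.77 in TKO villi, 8.32 to 8.78 in Rb villi and 8.33 to 8.53 in WT villi. In crypts it was 8.30 to 8.44 in QKO, 7.12 to 7.94 in TKO, 7.16 to 8.19 in Rb and 7.47 to 7.83 in WT. Of the 6, 3 were higher in QKO than in WT villi, beside 16.8% of all genes called there: Cybrd1 (3.21 ± 0.23) and Slc40a1 (4.12 ± 0.40), which handle duodenal iron, and Pdx1, a duodenal transcription factor. In crypts Pdx1, Slc40a1 and Onecut2 were higher and Ada was lower (-4.70); Onecut2 and Ada were named after their values were seen. The mean of 7 distal markers was 7.26 to 7.42 in QKO villi, 7.91 to 8.25 in TKO villi, 7.34 to 8.65 in Rb villi and 8.11 to 8.75 in WT villi, and 2 of the 7 were lower in QKO than in WT villi and 3 of 7 in crypts, where 13.3% of all genes were called. The part of intestinal position in the Tmprss15 difference was not tested.

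**Figure D3:**
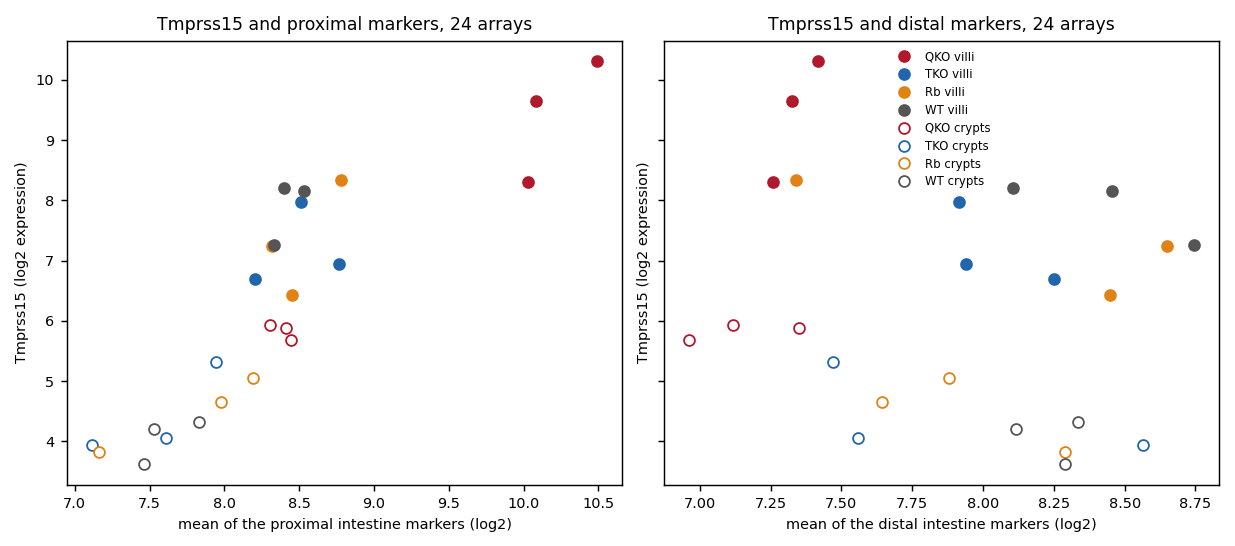
Tmprss15 (vertical axis, log2 expression) against the mean of 6 proximal markers (left) and of 7 distal markers (right) on the 24 arrays, with villi filled and crypts open. The 3 QKO villus arrays lie at proximal means of 10.03 to 10.49, to the right of all other arrays, which reach 8.78.

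The substrates of the cascade that Tmprss15 starts come from the pancreas. Of 9 pancreatic proteases measured, 8 were higher in QKO than in WT crypts and 0 in villi, beside 13.3% and 16.8% of all genes called. Their mean was 8.52, 5.81 and 8.91 on QKO crypts 1, 2 and 3, and 5.29 to 5.38 in WT crypts. The part of pancreatic RNA in the Tmprss15 difference in crypts was not tested.

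Anpep, which trims neutral residues from the amino end of peptides, was bright everywhere. In villi it read 13.03, 13.31 and 13.51 in QKO, 13.49, 13.83 and 13.52 in TKO, 13.15, 13.59 and 13.52 in Rb, and 13.94, 13.79 and 13.64 in WT. In crypts it read 12.77, 12.69 and 12.93 in QKO, 13.14, 12.62 and 12.61 in TKO, 12.97, 13.12 and 13.58 in Rb, and 13.26, 12.98 and 13.14 in WT. The QKO villus arrays all lay below the WT villus arrays, while TKO and WT overlapped. Anpep was lower in QKO than in WT villi (-0.51 ± 0.17, 1.42-fold, adjusted p = 0.047). With sex as a covariate the difference was -0.31 (adjusted p = 0.45), and leaving out any 1 of the 3 WT villus arrays, QKO villi 1 or QKO villi 2 ended the call (adjusted p up to 0.18). The call was also lost without both arrays that went against their labels (-0.51, adjusted p = 0.058). Rb minus WT in villi was -0.37 ± 0.17 (adjusted p = 0.16), with arrays that did not overlap. The excess of villi over crypts was 0.49 ± 0.17 in QKO, 0.82 ± 0.17 in TKO and 0.66 ± 0.17 in WT, all called. The QKO call for Anpep was lost in 4 of 12 other settings, with 0.32 (adjusted p = 0.30) without QKO villi 3 and QKO crypts 2, and without QKO villi 2, QKO villi 3, QKO crypts 1 or QKO crypts 2.

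Enpep, which removes acidic residues, varied least of the 9. Its villus arrays spanned 13.45 to 13.60 in QKO, 13.79 to 13.97 in TKO, 13.67 to 13.93 in Rb and 13.71 to 13.90 in WT. Its crypt arrays spanned 13.23 to 13.40 in QKO, 13.39 to 13.64 in TKO, 13.42 to 13.82 in Rb and 13.41 to 13.72 in WT. The QKO group mean was the lowest in each compartment, and in villi the QKO arrays overlapped none of the other genotypes. In the model of 8 group means no genotype difference passed the test: QKO minus TKO in villi was -0.36 ± 0.11 (adjusted p = 0.054), QKO minus Rb -0.30 ± 0.11 (adjusted p = 0.05001) and QKO minus WT -0.28 ± 0.11 (adjusted p = 0.082). Centred on array medians, these 3 differences were -0.47, -0.48 and -0.49, with adjusted p of 0.031, 0.0098 and 0.0087. With the replicate number as a block they had adjusted p of 0.021, 0.019 and 0.036, although the numbers pair villi with crypts of QKO and of TKO and not one genotype with another. Without both arrays that went against their labels, QKO minus TKO and QKO minus Rb in villi were called (adjusted p of 0.037 and 0.033). QKO minus Rb in crypts, -0.275 over all arrays (adjusted p = 0.089), was then -0.37 and called (adjusted p = 0.029). Enpep was higher in TKO villi than in TKO crypts by 0.35 ± 0.11 (adjusted p = 0.035), a call lost in 3 of 12 other settings and 4 of 6 fits without 1 array (adjusted p up to 0.20, without TKO crypts 2). The WT difference of 0.27 was 0.36 (adjusted p = 0.017) without both arrays that went against their labels, and was called in 4 of 12 other settings in all. The test of TKO against WT gave 0.08 ± 0.15 (adjusted p = 0.85).

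Dpep1, which splits dipeptides, was in villi 11.95 to 12.37 in QKO, 12.49 to 12.76 in TKO, 12.07 to 12.39 in Rb and 12.58 to 12.75 in WT. In crypts it was 11.31 to 11.66 in QKO, 11.28 to 12.24 in TKO, 11.33 to 11.96 in Rb and 11.27 to 11.65 in WT. On this probe set villus arrays of QKO and Rb lay below those of TKO and WT. The differences from WT were -0.52 ± 0.20 for QKO (adjusted p = 0.073) and -0.42 ± 0.20 for Rb (adjusted p = 0.17, limma), which missed the threshold. On the second probe set the QKO villus arrays overlapped those of TKO and WT, and the Rb arrays those of TKO. There the differences from WT were -0.29 ± 0.22 for QKO (adjusted p = 0.41) and -0.45 ± 0.22 for Rb (adjusted p = 0.20, limma). Dpep1 was higher in villi than in crypts by 0.65 ± 0.20 in QKO, 0.92 ± 0.20 in TKO, 0.71 ± 0.20 in Rb and 1.17 ± 0.20 in WT, all called. The second probe set gave 0.53, 0.72, 0.87 and 1.31 in the same groups, of which the QKO value was not called (adjusted p = 0.071). On the first probe set the Rb call was lost in 4 of 6 fits without 1 array (adjusted p up to 0.091). It was also lost without both arrays that went against their labels (0.63, adjusted p = 0.098). The QKO call was lost in 2 of 6 fits without 1 array (adjusted p up to 0.068).

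Mme, which cuts peptides on the amino side of hydrophobic residues, read in villi 11.87, 12.13 and 12.36 in QKO, 12.19, 12.21 and 12.09 in TKO, 11.81, 11.79 and 11.82 in Rb, and 12.19, 12.49 and 12.19 in WT. In crypts it read 11.55, 11.51 and 11.39 in QKO, 11.51, 10.63 and 10.92 in TKO, 10.67, 10.02 and 11.39 in Rb, and 11.01, 10.19 and 11.18 in WT. On this probe set the QKO crypt arrays all lay above the WT crypt arrays, and QKO crypts 3 and Rb crypts 3 were both at 11.39. Mme was higher in QKO than in Rb crypts by 0.79 ± 0.27 (1.73-fold, adjusted p = 0.046). Its second probe set gave 0.10 ± 0.39 (adjusted p = 0.90), and without Rb crypts 2, which went against its label, the difference was 0.45 (adjusted p = 0.26). Without both arrays that went against their labels it was also 0.45 (adjusted p = 0.24). QKO minus WT in crypts was 0.69 ± 0.27 (adjusted p = 0.094) and on the second probe set 0.32 ± 0.39 (adjusted p = 0.66), where the arrays read 10.01 to 10.23 in QKO and 8.87 to 10.29 in WT and overlapped. On the first probe set, without both arrays that went against their labels it was 0.89 (adjusted p = 0.029). Mme was higher in villi than in crypts by 1.14 ± 0.27 in TKO, 1.11 ± 0.27 in Rb and 1.5 ± 0.27 in WT, all called. In QKO the difference was 0.63 ± 0.27, not called (adjusted p = 0.075). It was called without both arrays that went against their labels (adjusted p = 0.031) and when only the groups compared were fitted (adjusted p = 0.019). The second probe set of Mme gave 1.02 in QKO and 1.09 in Rb, not called, and 1.70 in TKO and 1.71 in WT, called.

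Slc15a1, the peptide carrier, read in villi 10.59, 11.64 and 11.08 in QKO, 11.64, 11.54 and 11.28 in TKO, 10.27, 10.68 and 10.93 in Rb, and 11.52, 11.76 and 11.41 in WT. In crypts it read 9.34, 9.56 and 8.81 in QKO, 10.80, 9.29 and 9.92 in TKO, 9.66, 9.64 and 10.001 in Rb, and 10.24, 9.95 and 10.06 in WT. The Rb villus arrays lay below all TKO and WT villus arrays, and the QKO crypt arrays below all Rb and WT crypt arrays. Slc15a1 was lower in Rb than in WT villi (-0.94 ± 0.29, 1.92-fold, 95% interval -1.54 to -0.33, adjusted p = 0.033). It was the only one of the 9 called in this comparison, in which 14.8% of all genes were called. Leaving out WT villi 1, 2 or 3, Rb villi 1 or Rb villi 2 ended the call (adjusted p of 0.060 to 0.15), with differences between -1.01 and -0.76. With sex as a covariate it was -0.60 (adjusted p = 0.27).

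In QKO crypts Slc15a1 stood at -0.85 ± 0.29 from WT, which missed the threshold (adjusted p = 0.058) and was called in 6 of 12 other settings (adjusted p of 0.023 to 0.049). With sex as a covariate it was -0.345 (adjusted p = 0.65). In QKO villi the difference from WT was -0.46 ± 0.29 (adjusted p = 0.31), and from Rb villi 0.48 ± 0.29 (adjusted p = 0.26). Villi exceeded crypts by 1.87 ± 0.29 in QKO (3.64-fold), 1.49 ± 0.29 in TKO, 0.86 ± 0.29 in Rb and 1.48 ± 0.29 in WT, all called. The Rb call (adjusted p = 0.046) was lost in 3 of 12 other settings and 4 of 6 fits without 1 array (adjusted p up to 0.17). Without both arrays that went against their labels the Rb difference was 0.80 (adjusted p = 0.17). In the Rb villi, 8 of 11 proliferating crypt cell markers were higher than in WT villi, beside 14.8% of all genes called. Their mean was 9.96 to 10.09 in Rb villi and 8.28 to 8.42 in WT villi, while 0 of 11 enterocyte markers were called (mean 13.8 to 13.9 in Rb and 13.9 to 14.0 in WT villi). The part of dividing cells in the Slc15a1 difference was not tested.

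In all, 3 partners of peptide uptake were read beside it: Slc9a3, the proton exchanger that recycles its protons, and the scaffolds Slc9a3r1 and Pdzk1. All 3 were higher in WT and in Rb villi than in crypts, and 2 of 3 in QKO and in TKO. The shares of all genes called higher were 18.8%, 7.61%, 13.5% and 6.43% in the same order. Pdzk1 was lower than in WT in the villi of QKO (-1.004 ± 0.23, adjusted p = 0.0055), TKO (-0.81 ± 0.23, adjusted p = 0.029) and Rb (-0.89 ± 0.23, adjusted p = 0.011), comparisons that share the WT arrays.

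Slc6a19 was in villi 12.51 to 13.09 in QKO, 12.75 to 12.98 in TKO, 12.31 to 12.74 in Rb and 12.58 to 12.83 in WT. In crypts it was 11.04 to 11.29 in QKO, 10.87 to 11.73 in TKO, 10.57 to 12.03 in Rb and 11.07 to 11.78 in WT. The villus ranges all lay above the crypt ranges. Villi exceeded crypts by 1.64 ± 0.27 in QKO (3.11-fold), 1.55 ± 0.27 in TKO, 1.15 ± 0.27 in Rb and 1.27 ± 0.27 in WT, all called, and the second probe set gave 1.57, 1.43, 1.18 and 1.29 in the same groups, all called too. No genotype difference was called, and the 3 differences from WT in villi lay between -0.22 and 0.15.

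Slc7a9, the light subunit, spanned in villi 12.56 to 13.03 in QKO, 12.39 to 12.77 in TKO, 12.45 to 12.74 in Rb and 12.72 to 12.75 in WT. In crypts it spanned 12.16 to 12.46 in QKO, 11.64 to 12.08 in TKO, 11.77 to 12.55 in Rb and 11.78 to 12.13 in WT. Villi exceeded crypts by 0.46 ± 0.18 in QKO (adjusted p = 0.0499), 0.62 ± 0.18 in TKO (adjusted p = 0.021) and 0.75 ± 0.18 in WT (adjusted p = 0.0019). The QKO call was lost in 7 of 12 other settings and without QKO villi 3 (0.31, adjusted p = 0.25), QKO crypts 1 or QKO crypts 2. The heavy subunit Slc3a1 read in villi 11.14, 11.83 and 12.04 in QKO, 11.36, 11.85 and 11.53 in TKO, 11.81, 11.98 and 11.77 in Rb, and 11.98, 11.99 and 12.04 in WT. Its crypt arrays spanned 10.46 to 10.58 in QKO, 10.03 to 10.80 in TKO, 10.03 to 11.53 in Rb and 10.18 to 10.93 in WT. Villi exceeded crypts by 1.17 ± 0.29 in QKO, 1.15 ± 0.29 in TKO, 1.19 ± 0.29 in Rb and 1.35 ± 0.29 in WT, all called. The villus difference was thus larger in the estimates for the heavy than for the light subunit in each genotype, a contrast between 2 probe sets that was not tested. No genotype difference was called for either subunit.

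Against WT, the share of the 9 genes called was near that of all genes or below it. In villi the count was 2 for QKO, with Tmprss15 higher and Anpep lower (16.8% of all genes called), 0 for TKO (9.77%) and 1 for Rb. In crypts it was 1 for QKO (13.3%), 0 for TKO (4.73%) and 0 for Rb (0%). At an unadjusted p under 0.05 there were 0 of the 9 in each of these comparisons with no call, beside 4022 genes of all for TKO villi, 3578 for TKO crypts and 709 for Rb crypts. The TKO to WT differences in villi ran from -0.67 to 0.15, and those of Rb crypts from -0.32 to 0.46. Medians over the 9 in villi were -0.28 for QKO, -0.13 for TKO and -0.37 for Rb, beside 0.03, -0.03 and -0.08 over all genes.

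**Figure D4:**
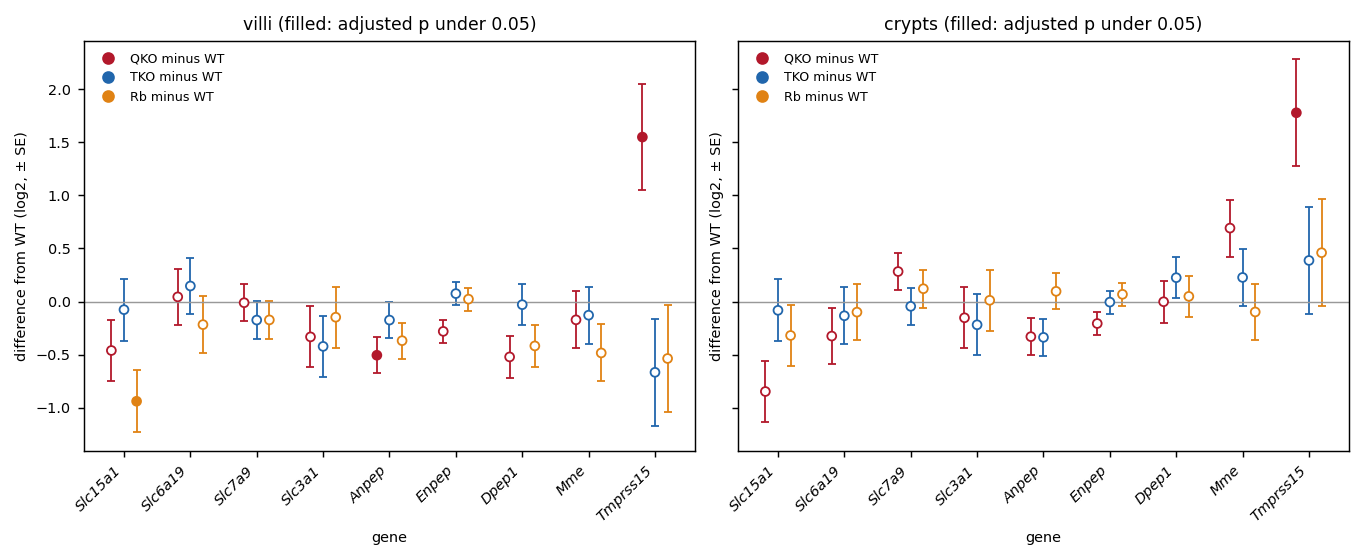
Differences of QKO, TKO and Rb from WT for the 9 genes in villi (left) and crypts (right), as log2 values with SE from the fit over 24 arrays, filled where the adjusted p was under 0.05. Tmprss15 in QKO stands at 1.55 in villi and 1.78 in crypts, and Slc15a1 in Rb villi at -0.94.

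Among the mutants, QKO minus Rb called Tmprss15 in villi (22.2% of all genes called) and Mme in crypts (17.2%). QKO minus TKO called Tmprss15 in villi (6.68%) and none in crypts (1.61%), where 2 of the 9 and 3147 of all genes had an unadjusted p under 0.05. The order of group means put the 4 villus groups above the 4 crypt groups for 8 of the 9 genes, the exception being Enpep, whose QKO villus mean (13.53) lay below the Rb, WT and TKO crypt means. Within the villus groups, neighbouring means overlapped in their arrays except below QKO for Tmprss15, below TKO for Dpep1, below QKO for Mme and below WT for Enpep. Tmprss15 in QKO villi did overlap Rb villi, which were not its neighbour. On the second probe sets, Mme in QKO villi overlapped Rb villi, and Dpep1 in TKO villi overlapped QKO and Rb villi. The share of all genes without overlap is not given here for such pairs.

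In some groups 1 array was the lowest or the highest for most of the 9 genes. WT crypts 2 was the lowest of its group for all 9, with a mean over the 9 of 10.49 against 10.93 and 10.98 on the other WT crypt arrays. Rb crypts 3 was the highest of its group for all 9 (mean 11.32, against 10.75 and 10.42), and TKO crypts 2 the lowest for 7 (mean 10.42, against 11.10 and 10.89). In villi, QKO villi 3 was the highest for 8 and QKO villi 1 the lowest for 7. There was no such array in QKO crypts, Rb villi or WT villi, where no array was the highest or lowest of its group for more than 5. The enterocyte marker mean had its lowest WT crypt value on WT crypts 2 (13.17), its highest Rb crypt value on Rb crypts 3 (13.69) and its lowest TKO crypt value on TKO crypts 2 (12.99). For other cell types, the Paneth cell marker mean was 9.87 to 10.68 in QKO villi and 11.42 to 11.95 in WT villi, the goblet cell mean was 11.84 to 12.31 in QKO villi and 12.40 to 12.50 in WT villi, and the stromal and muscle mean was 5.85 to 7.09 in QKO villi and 5.39 to 5.66 in WT villi. Called in QKO against WT villi were 1 of 7 Paneth and 3 of 8 goblet markers, lower, and 1 of 10 stromal and muscle and 2 of 11 immune markers, higher, beside 16.8% of all genes. In crypts 8 of 8 goblet, 2 of 7 Paneth and 5 of 11 immune markers were lower in QKO than in WT, beside 13.3% of all genes called. In TKO 5 of 8 goblet markers were lower than in WT in villi (9.77% of all genes called) and 6 of 8 in crypts (4.73%). The part of these cells or of enterocyte content in the differences was not tested.

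By Pearson correlation over the 24 arrays, which are 12 villus and 12 crypt arrays, so that the measure follows mainly that split, the gene most like Slc15a1 was Susd2 (0.96). It was Enpp3 for Slc6a19 (0.96), Mtmr4 for Slc7a9 (0.95), Mep1b, a brush border metalloprotease, for Slc3a1 (0.97) and Dpp4, the dipeptidyl peptidase, for Anpep (0.95). It was Fabp2, a fatty acid binding protein of enterocytes, for Enpep (0.90), Amn for Dpep1 (0.96), Slc5a11 for Mme (0.98) and Vkorc1l1 for Tmprss15 (0.95). For the mean of the 9 it was Rdh9 (0.96).

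Of the other brush border peptidases, 9 of 11 listed were measured, and none of the 9 was lower in villi of any genotype. Higher in villi than in crypts were 4 in QKO, 5 in TKO, 1 in Rb and 5 in WT. The shares of all genes called higher were 13.5%, 6.43%, 7.61% and 18.8% in the same order. Mep1b (1.08 ± 0.18) and Ace (1.59 ± 0.29), the angiotensin converting enzyme, led in WT. Between genotypes Cltrn stood out in QKO. This partner of Slc6a19 in kidney was higher than in WT by 1.95 ± 0.24 in villi (adjusted p = 1.4e-05) and by 2.76 ± 0.24 in crypts (adjusted p = 2.5e-07), whereas Slc6a19 itself was not called. Xpnpep2, an aminopeptidase for proline-containing peptides, was lower in QKO villi (-1.39 ± 0.31, adjusted p = 0.0040), and Naaladl1 in QKO crypts (-1.71 ± 0.28, adjusted p = 0.00038). Ace was lower in Rb than in WT villi (-1.72 ± 0.29, adjusted p = 0.00020).

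The 7 other apical amino acid transporters did not move one way. In WT villi 3 were higher and 2 lower than in crypts, beside 18.8% of all genes called higher. Slc6a20b was among the higher (2.55 ± 0.33) and Slc1a5, a glutamine carrier, among the lower (-2.07 ± 0.20). Slc6a20b was lower than in WT in the villi of QKO (-2.76 ± 0.33), TKO (-2.47 ± 0.33) and Rb (-2.09 ± 0.33), and Slc1a5 was higher in QKO (0.80 ± 0.20), TKO (0.92 ± 0.20) and Rb (0.67 ± 0.20), in comparisons with the same WT arrays. Slc6a20b and Slc6a20a are close relatives, and probes could share signal between them.

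Of the 8 basolateral transporters, which pass amino acids on to the blood, 5 were higher and 2 lower in WT villi than in crypts. Among all genes 18.8% were called higher there, and the share called lower is not given here. Slc43a2 (1.43 ± 0.13) and Slc7a7 (1.27 ± 0.20) led the higher ones. In QKO villi 5 of the 8 were lower than in WT and 0 higher, beside 16.8% of all genes called in either direction. The lower ones were led by Slc7a8 (-2.16 ± 0.21, adjusted p = 8.4e-07, limma), a neutral amino acid exchanger, and its heavy chain Slc3a2 (-0.80 ± 0.18, adjusted p = 0.0040). In Rb villi 2 were lower, Slc43a2 (-1.28 ± 0.13) and Slc7a8 (-0.92 ± 0.21), and 1 higher (14.8% of all genes called). In TKO villi 1 was lower, Slc43a2 (-0.46 ± 0.13), beside 9.77% of all genes called. The 8 cytosolic peptidases finish absorbed peptides inside the cell. Of these, 4 were lower in QKO than in WT villi and 0 higher, beside the same 16.8% of all genes. Among the lower ones were Lta4h (-0.51 ± 0.12) and Cndp2 (-0.59 ± 0.15).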

How the data were processed

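Expression was measured in villi and crypts of small intestine on Affymetrix mouse arrays, from total RNA extracted with Trizol and labelled as biotinylated cRNA, per the labels. The authors deposited 1 log2 value per probe set and array. No source used here names the summarisation or the normalization between arrays, and no scanner files were used. Of 45101 probe sets, 34945 named 1 gene, 932 named several and 9160 named none in the platform annotation, with 64 controls left out. Each of 18193 genes was represented by its probe set with the highest mean.

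One limma model (version 3.58.1, R 4.3.3) with 8 group means was fitted over the 24 arrays and all genes, with an intensity trend, and p-values were adjusted over all genes by Benjamini-Hochberg. Called means an adjusted p under 0.05, and intervals are at 95%. The number of arrays limits the precision. The 9 members and the other lists were chosen with earlier results of these data known. From other lists, the 2 genes with the smallest adjusted p in a comparison were named, and any further gene was named after its values were seen. Where replicate numbers recur, deviations from group means paired villi with crypts in TKO (correlations 0.61, 0.55 and 0.64) and in QKO (0.55, 0.25 and 0.37), and not in WT or Rb. The model was tested on simulated data.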

Additional observations from a re-analysis of the deposited data

Results flagged for a closer look

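For Tmprss15 in villi the difference between groups labelled without and with Rb varied with E2f status. QKO minus TKO was 2.22 ± 0.50 and Rb minus WT was -0.54 ± 0.50 on the log2 scale. The difference between these differences was 2.75 ± 0.71 (SE, adjusted p = 0.011, limma, 3 arrays per group). That test called 15.4% of all genes. The QKO villus arrays were also all male, with proximal marker means of 10.03 to 10.49. The part of intestinal position in this difference was not tested. The 3 QKO villus arrays were above the 3 TKO villus arrays, whereas the Rb and WT villus arrays overlapped.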

How the results depend on the processing

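No difference of the 9 genes reversed where it was called. WT villi minus crypts called 8 genes, or 9, under every setting tried. Counts that moved by over 1.5 times, or to or from 0, were as follows; within that tolerance the count for Rb villi minus crypts ranged over 4 (only the groups compared) to 8 (array weights), and for QKO minus WT in villi it was 3 with centring (where Tmprss15 was no longer called, adjusted p = 0.055), array weights and the replicate block. Without WT crypts 3 and Rb crypts 2, Rb villi minus crypts called 2, QKO minus WT called 1 in villi and 2 in crypts, and QKO minus Rb and QKO minus TKO in villi each called 2. Without QKO villi 3 and QKO crypts 2, QKO villi minus crypts called 4, QKO minus WT 1 in villi and 0 in crypts, QKO minus Rb in crypts 0 and QKO minus TKO in villi 0. With sex as a covariate, Rb minus WT in villi, QKO minus WT in villi and in crypts, and QKO minus Rb in crypts each called 0. Quantile normalization gave 0 for Rb minus WT in villi, 0 for QKO minus WT in villi, 2 in crypts, and 0 for QKO minus Rb in crypts. Centring on array medians, which shifted the median of all genes by -0.21 in QKO minus WT villi, gave 2 for QKO minus WT in crypts, for QKO minus Rb in villi and in crypts, and for QKO minus TKO in villi. Fitting only the groups compared gave 3 for Rb minus WT in villi, 0 and 2 for QKO minus WT in villi and crypts, and 0 for QKO minus TKO in villi. Array weights gave 2 for each of Rb minus WT in villi, QKO minus WT in crypts, QKO minus Rb and QKO minus TKO in villi, and the difference of differences in villi. With no intensity trend, with dim genes removed and with probe sets of a gene averaged, QKO minus WT in villi called 1; averaging gave 0 for QKO minus Rb in crypts, and removing dim genes took out Tmprss15 and gave 0 for the difference of differences. The causes were not tested.

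With the replicate number as a block (the replicate block), QKO minus WT in crypts called 3, and QKO minus Rb in villi, QKO minus Rb in crypts, QKO minus TKO in villi and the difference of differences in villi each called 2; it moved no other count by more than 1.5 times. Leaving out 1 array gave 8 to 9 for villi minus crypts in WT, 1 to 8 in Rb, 4 to 9 in TKO and 4 to 7 in QKO. It gave 0 to 1 for Rb minus WT in villi, QKO minus WT in villi and in crypts, QKO minus Rb in crypts and QKO minus TKO in villi, 1 to 2 for QKO minus Rb in villi, and 1 for the difference of differences in villi. The comparisons with no call stayed at 0.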
